A study of Mus musculus with 4 samples.

Results

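The cytochrome P450 genes of gonadal white adipose tissue (gWAT) were examined in mice that lacked Dnmt1, the maintenance DNA methyltransferase, in adipocytes. Members were the genes whose symbol starts with Cyp followed by a family number, a subfamily letter and a gene number, which gave 74 of the 17335 genes measured. The family was selected on its log2 ratios in this comparison, which were known beforehand, so the counts over its members are a description and no test is given. P450 enzymes are haem proteins that insert an oxygen atom into their substrate with electrons passed on by cytochrome P450 reductase or, in mitochondria, by ferredoxin. Families CYP1 to CYP3 handle foreign compounds and also oestrogens and polyunsaturated fatty acids, CYP4 enzymes oxidise the far end of fatty acids and eicosanoids, and the remaining families make or break down steroids, bile acids, oxysterols, vitamin D and retinoic acid. Many of these genes are best known from the liver, and adipose tissue expresses a smaller set.

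Both groups were female mice kept for 18 weeks on a high-fat diet (HFD). AD1KO mice carried floxed Dnmt1 alleles and Cre recombinase under the adiponectin promoter, which is active in adipocytes, so the other cells of the depot keep Dnmt1. Their fl/fl littermates carried the floxed alleles without Cre. RNA of 4 animals was pooled into 1 library per genotype. There is no replicate within either genotype, so no p-value is given and none of the differences has a replicate check. Values are FPKM, that is, sequenced fragments scaled to transcript length and to library depth, and levels of different genes can therefore be compared. Low values moved in whole-read steps, from which 17773433 reads were recovered for the fl/fl library and 17581794 for the AD1KO library. Each log2 ratio of AD1KO over fl/fl (0.01 FPKM added to both values) carries a 95% counting interval that covers the reads of these 2 libraries and not the spread between mice. Dnmt1 itself stood at 6.99 FPKM in fl/fl and 3.33 FPKM in AD1KO, a log2 ratio of -1.07 (counting interval -1.27 to -0.87).

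Most P450 transcripts are told apart by sequence, but several are close copies. The stretch of coding sequence around the cysteine that binds the haem iron shows both the shared chemistry and this problem. It is printed for the members on which the results turn and for a pair of close copies, 5′ to 3′ on the coding strand, with the cysteine codon in capitals.
Cyp2e1: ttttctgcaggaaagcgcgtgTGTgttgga
Cyp2c23: ttctccctcgggaagcgatccTGTgttggc
Cyp4f18: ttctcggctgggcccaggaacTGCatagga
Cyp1b1: ttctcagtgggcaaacggaggTGCatcggt
Cyp2a5: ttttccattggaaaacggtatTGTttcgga
Cyp2a4: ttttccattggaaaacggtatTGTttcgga
The cysteine is codon 437 of Cyp2e1, codon 439 of Cyp2c23 and codon 468 of Cyp4f18. A pattern of phenylalanine, glycine or alanine, cysteine, and glycine or alanine at the spacing seen in these stretches was found in 66 of the 73 coding transcripts searched, and its absence from the others says only that these letters are not in the transcript used. The stretches of Cyp2a5 and Cyp2a4 are the same in every base. Over whole transcripts, 28 members shared more than 10% of their 50-base words with another gene, 4 of them more than 50%, and 26 shared none. Reads of the sharing members could have been divided between copies, so their single values are uncertain. Cyp2e1 shared 2.5% of its words, Cyp4f18 0.4%, and Cyp2c23 and Cyp1b1 none.

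Of the 74 members, 59 reached 0.1 FPKM in at least 1 library and 29 reached 1 FPKM. The other 15 rested on 1 to 6 reads over both libraries. A member could pass through a single library: 7 of the 59 reached 0.1 FPKM in AD1KO alone and 2 in fl/fl alone, and 6 of the 29 reached 1 FPKM in AD1KO alone and 1 in fl/fl alone. The direction of those members was fixed in part by the minimum, and 50 members reached 0.1 FPKM in both libraries, of which 21 were higher and 7 lower by the threshold used below. Among the 59, the log2 ratio was at least 0.5 in 28 (47.5%), against 14.3% of the 15839 genes at the same minimum, and at most -0.5 in 8 (13.6%), against 19.1% of genes. These shares of genes are also the background for the counts in families, clusters and gene lists below. The median log2 ratio was 0.42 over the 59 members and -0.04 over all genes, and it was above 0 in 45 members (76.3%), against 45.3% of genes. Most P450 genes were expressed too weakly for these single ratios to be firm. The whole counting interval lay above 0 in 23 members (39%), against 21.5% of genes, and below 0 in 4 members (6.78%), against 29.1% of genes. It lay wholly past 0.5 in 2 members (3.39%), Cyp2e1 and Cyp2c23, against 4.17% of genes. It lay wholly below -0.5 in 1 member (1.69%), Cyp4f18, against 8.3% of genes. Both shares were below those of genes. In 32 of the 59 the interval held 0. Close to the threshold stood Cyp1b1 at -0.57 and Cyp8b1 at -0.55 just outside it on the lower side and Cyp2c54 at -0.46 just inside. On the upper side Cyp4a10 at 0.57 was just outside, and Cyp2s1 and Cyp2a4, both at 0.42, were just inside.

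**Figure D1:**
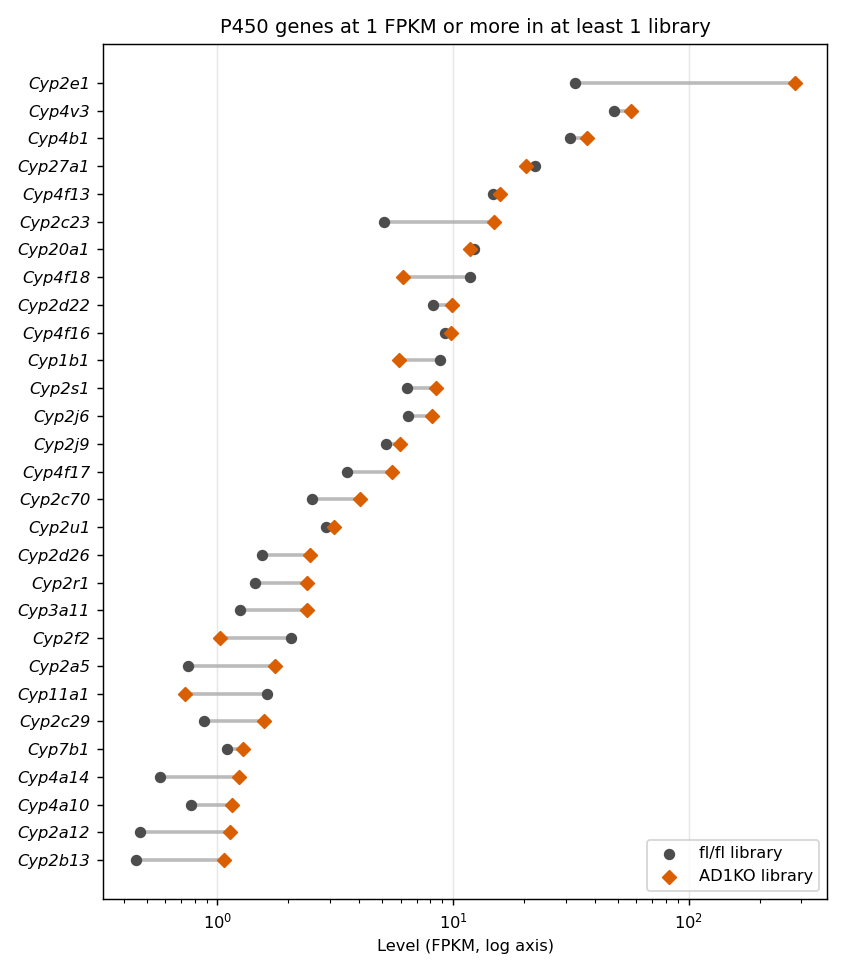
Level of the 29 P450 genes that reached 1 FPKM, on a log axis in FPKM, with a grey circle for the fl/fl library and an orange diamond for the AD1KO library (1 library of pooled RNA each, so there are no error bars). Cyp2e1 moved from 32.75 to 281.14 FPKM, while Cyp4v3, Cyp4b1 and Cyp27a1, the other genes above 20 FPKM, moved little.

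Cyp2e1, which oxidises ethanol, acetone and fatty acids and is abundant in liver, made up most of the difference in P450 transcript level. It measured 32.75 FPKM in the fl/fl library and 281.14 FPKM in the AD1KO library, from 949 and 8070 reads. The AD1KO level was 8.58-fold the fl/fl level, with a log2 ratio of 3.10 (counting interval 3.0 to 3.20). Among the 8599 genes at 5 FPKM or more in at least 1 library, that ratio ranked 9 from the highest. The summed level of the 74 members was 254 FPKM in fl/fl and 536 FPKM in AD1KO, of which Cyp2e1 held 12.9% and 52.4%. Without Cyp2e1 the sums were 221 and 255 FPKM. By level Cyp2e1 ranked 2 among the members in fl/fl, behind Cyp4v3, and 1 in AD1KO. The gene lies on the plus strand at chr7:147949638-147960874 of mm9.

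The 250 bases before the annotated start of Cyp2e1 (RefSeq, GRCm38.p6, chr7:140763569-140763818, plus strand) and of Cyp1b1 (chr17:79715062-79715311, minus strand) are shown since Dnmt1 acts on CpG dinucleotides, which are in capitals.
Cyp2e1: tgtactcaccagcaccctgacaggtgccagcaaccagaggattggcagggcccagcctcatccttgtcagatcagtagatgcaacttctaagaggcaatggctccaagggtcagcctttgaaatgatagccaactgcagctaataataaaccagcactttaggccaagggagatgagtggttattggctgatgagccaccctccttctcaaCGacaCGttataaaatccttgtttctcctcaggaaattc
Cyp1b1: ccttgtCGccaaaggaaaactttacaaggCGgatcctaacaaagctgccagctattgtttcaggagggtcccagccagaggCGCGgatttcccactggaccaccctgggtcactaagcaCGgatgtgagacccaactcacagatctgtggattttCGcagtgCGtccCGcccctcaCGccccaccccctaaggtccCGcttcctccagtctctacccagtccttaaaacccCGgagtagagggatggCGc
The Cyp2e1 window held 2 CpGs and that of Cyp1b1, which was lower in AD1KO, held 12. Windows were matched for 48 of the 59 members at the minimum level. Their median was 2 CpGs and 81.2% of them held 5 or fewer, against a median of 6 and a share of 49.6% over 32851 windows. Each member entered with 1 window, while the 32851 were not limited to 1 per gene or to genes at the minimum level. Among the matched members that were higher in AD1KO, 22 of 23 windows held 5 CpGs or fewer, as did 6 of 7 among those lower and 11 of 18 among those within 0.5. Methylation of these windows was not analysed here, and the counts describe sequence alone.

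Enzymes of the CYP2 family metabolise foreign compounds and polyunsaturated fatty acids. Without Cyp2r1, which is counted with the vitamin D genes, the family held 35 members, of which 30 reached the minimum. In 19 of these the log2 ratio was at least 0.5 and in 1 at most -0.5, against 14.3% and 19.1% of all genes. The median was 0.87, and the summed level of the 35 members was 79.8 FPKM in fl/fl and 352 FPKM in AD1KO. Next to Cyp2e1 stood Cyp2c23, an arachidonic acid epoxygenase also named Cyp2c44, at 5.07 FPKM in fl/fl and 14.92 FPKM in AD1KO (112 and 326 reads). Its log2 ratio was 1.56 (counting interval 1.24 to 1.88) and ranked 29 of the 8599 genes. Cyp2c23 lies at chr19:44079512-44103737 of mm9, away from the main Cyp2c cluster.

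The other well-expressed CYP2 genes differed much less. Cyp2d22, the mouse gene often set beside human CYP2D6, was at 8.23 FPKM in fl/fl and 9.9 FPKM in AD1KO, a log2 ratio of 0.27 (0.07 to 0.46). Cyp2s1, a P450 of epithelia outside the liver, was at 6.35 and 8.47 FPKM, a ratio of 0.42 (0.19 to 0.65). Both intervals lay above 0 and reached below 0.5. Cyp2j6, of the CYP2J subfamily of fatty acid epoxygenases and hydroxylases, measured 6.44 and 8.1 FPKM, a ratio of 0.33 (0.14 to 0.52). For Cyp2j9, of the same subfamily, the levels were 5.19 and 5.96 FPKM and the interval of the ratio held 0 (0.20, -0.11 to 0.51). Cyp2u1, a long-chain fatty acid hydroxylase, was at 2.9 and 3.13 FPKM, and its interval held 0 too (0.11, -0.22 to 0.45). These 5 genes thus stood within 0.5 on the log2 scale.

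Several CYP2 genes known from liver were close to 1 FPKM and rested on few reads. Of the 6 described next, Cyp2c29, Cyp2a5, Cyp2a12 and Cyp2b13 reached 1 FPKM in the AD1KO library alone, so their higher level there is in part how they came to be named. Cyp2c70, which makes the muricholic acids of rodent bile, was at 2.51 FPKM in fl/fl and 4.04 FPKM in AD1KO (0.68, 0.18 to 1.2). Cyp2d26 had 1.55 and 2.46 FPKM (0.66, 0.08 to 1.26), and Cyp2c29, an arachidonic acid epoxygenase of liver, had 0.88 and 1.57 FPKM (0.83, 0.11 to 1.59). In each of these genes the interval excluded 0 and reached below 0.5. Cyp2a5, the coumarin hydroxylase, measured 0.75 and 1.75 FPKM from 22 and 50 reads (1.21, 0.45 to 1.99). Cyp2a12, a steroid hydroxylase of liver, was at 0.47 and 1.13 FPKM (1.25, 0.29 to 2.32). Cyp2b13, which is expressed in female liver, stood at 0.45 and 1.07 FPKM (1.23, 0.31 to 2.27). The last 3 share 31.0%, 27.9% and 19% of their words with a neighbour, so the copies were also summed, a step added after their values were seen. Cyp2a4 and Cyp2a5 together had 33 reads against 65 in AD1KO, a ratio of 0.99 (0.36 to 1.64). The neighbours Cyp2b9, Cyp2b10, Cyp2b13 and Cyp2b23 together gave 37 and 68 reads, a ratio of 0.89 (0.29 to 1.51). Cyp2d26 shares 10.9% of its words, and the 5 Cyp2d genes summed to 452 and 560 reads, a ratio of 0.32 (0.14 to 0.50), which was within the threshold and came mostly from Cyp2d22.

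Cyp2f2 went the other way from the genes just described and was the CYP2 gene past the threshold on the lower side. It stood at 2.06 FPKM in fl/fl and 1.02 FPKM in AD1KO (63 and 31 reads), a log2 ratio of -1.01 (counting interval -1.68 to -0.37). Among CYP2 genes under 1 FPKM the highest were Cyp2ab1 at 0.32 and 0.85 FPKM, Cyp2c37 at 0.4 and 0.84 FPKM, and Cyp2c50 at 0.33 and 0.81 FPKM. Their ratios were 1.38 (0.50 to 2.36), 1.05 (0.02 to 2.20) and 1.27 (0.47 to 2.27). Cyp2c37 and Cyp2c50 share 29.2% and 30.7% of their words with other genes, each being closest to the other, and with Cyp2c54 they summed to 31 and 67 reads, a ratio of 1.12 (0.49 to 1.79).

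By position, the Cyp2c cluster on chr19:39135505-40261823 of mm9 held 11 members, of which 10 reached the minimum. The log2 ratio was at least 0.5 in 8 of them and at most -0.5 in none. Over all genes the shares were 14.3% and 19.1%. Cyp2c38, Cyp2c40 and Cyp2c69 were among the 8, and their intervals held 0. The close copies Cyp2c40, Cyp2c67, Cyp2c68 and Cyp2c69 together gave 18 and 37 reads, a ratio of 1.05 (0.20 to 1.95). On chr7:26587494-27918679, the Cyp2a, Cyp2b, Cyp2f and Cyp2s genes numbered 10, with 9 at the minimum, 5 higher and 1 lower. In the Cyp2d cluster on chr15:82200958-82624675, 2 of 4 members at the minimum were higher and none lower. Neighbours in these clusters are also the genes that share sequence, so they are not independent measurements.

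**Figure D2:**
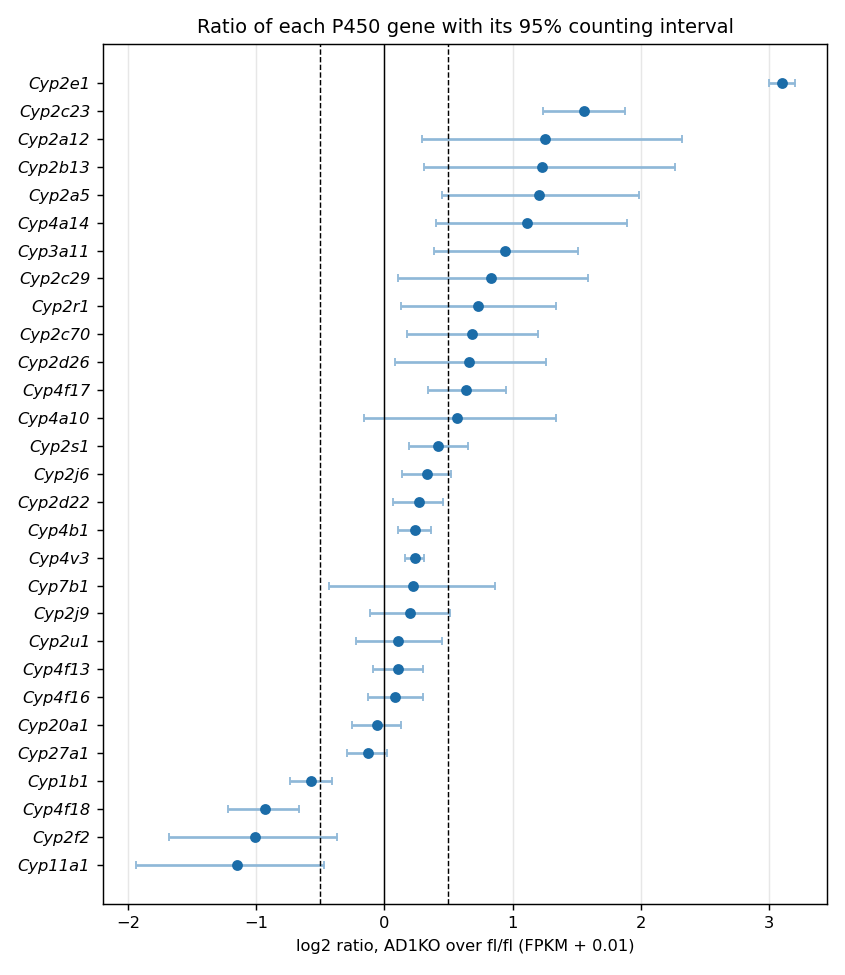
Log2 ratio of AD1KO over fl/fl (0.01 FPKM added) for the 29 P450 genes at 1 FPKM or more, with bars for the 95% counting interval of the reads and dashed lines at the threshold of 0.5 in either direction. Cyp2e1 and Cyp2c23 lie wholly above the upper line and Cyp4f18 wholly below the lower line, and the other intervals cross or stay within them.

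The CYP3A genes, which oxidise steroids and drugs, were weakly expressed. Of 6 members, 4 reached the minimum and 2 of these were higher in AD1KO, against 14.3% of all genes. The median log2 ratio was 0.62. Cyp3a11, the main Cyp3a gene of mouse liver, was at 1.25 FPKM in fl/fl and 2.41 FPKM in AD1KO (43 and 82 reads), a ratio of 0.94 (0.39 to 1.51). It shares 14.7% of its words with Cyp3a41a. The 5 genes of the chromosome 5 cluster, Cyp3a11 with Cyp3a25, Cyp3a41a, Cyp3a44 and Cyp3a59, together gave 65 and 121 reads, a ratio of 0.91 (0.46 to 1.37). Cyp3a25 measured 0.15 and 0.54 FPKM and Cyp3a41a, which is almost a copy of another Cyp3a gene, 0.49 and 0.56 FPKM.

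The CYP4 family held the most abundant P450 transcripts of the fl/fl library besides Cyp2e1, and as a group it differed little. It had 14 members, 11 at the minimum, of which 4 were higher and 2 lower, against 14.3% and 19.1% of all genes. The median log2 ratio was 0.24 and the summed level 122 FPKM in fl/fl and 135 FPKM in AD1KO. Cyp4v3, a fatty acid hydroxylase whose human counterpart CYP4V2 is mutated in a crystalline retinal dystrophy, was at 48.12 FPKM in fl/fl and 56.66 FPKM in AD1KO, a ratio of 0.24 (0.16 to 0.31). Cyp4b1, which hydroxylates medium-chain fatty acids, was at 31.43 and 37.06 FPKM, with the same ratio of 0.24 (0.11 to 0.36). Both intervals excluded 0 and stayed below 0.5.

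Within the Cyp4f genes, which oxidise leukotrienes and other eicosanoids, the directions were mixed. Cyp4f18, known for oxidising a leukotriene in neutrophils, was at 11.75 FPKM in fl/fl and 6.15 FPKM in AD1KO (329 and 170 reads), a ratio of -0.93 (-1.22 to -0.67). Cyp4f17 stood at 3.55 and 5.53 FPKM, a ratio of 0.64 (0.34 to 0.95). Cyp4f18 was therefore lower and Cyp4f17 higher in AD1KO. Cyp4f13 measured 14.72 and 15.86 FPKM (0.11, -0.09 to 0.30). Cyp4f16 measured 9.22 and 9.78 FPKM (0.08, -0.13 to 0.30), and shares 26.4% of its words with the gene model Gm9705. Both intervals held 0. Cyp4f18 lies on chromosome 8 at chr8:74512381-74533525 of mm9, apart from the Cyp4f cluster of chromosome 17, where 2 of 6 members were higher and 1 lower.

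Cyp4a10 and Cyp4a14, liver fatty acid hydroxylases under the control of the receptor PPARα, were close to 1 FPKM. Cyp4a14 was at 0.57 FPKM in fl/fl and 1.24 FPKM in AD1KO, a ratio of 1.11 (0.40 to 1.89). Cyp4a10 was at 0.77 and 1.15 FPKM, and its interval held 0 (0.57, -0.16 to 1.34). Both reached 1 FPKM in the AD1KO library alone. Cyp4a10 shares 30.5% of its words with other genes, and with Cyp4a31 and Cyp4a32 it summed to 30 and 42 reads, a ratio of 0.50 (-0.21 to 1.22). Of the CYP4 genes under 1 FPKM, Cyp4f39 was at 0.99 and 0.8 FPKM, Cyp4f15 at 0.31 and 0.2 FPKM, and Cyp4f14 at 0.09 and 0.29 FPKM, each with an interval that held 0.

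Cyp1b1, which hydroxylates oestrogens and aryl hydrocarbons and is induced through the aryl hydrocarbon receptor, was the CYP1 gene with an appreciable level. It was at 8.77 FPKM in fl/fl and 5.89 FPKM in AD1KO (775 and 516 reads), a log2 ratio of -0.57 (-0.74 to -0.41). The interval excluded 0 and crossed -0.5. Cyp1a2 rested on 4 and 11 reads and Cyp1a1 on 2 and 2. The receptor gene Ahr was at 1.4 and 1.07 FPKM, a ratio of -0.38, and its partner Arnt at 9.73 and 9.58 FPKM. Of 7 other genes known as targets of the receptor, 2 were higher and none lower, with a median of 0.24. These 2 were Ugt1a6a and Gsta1, the latter from 0 and 1 reads, and the median was -0.04 over the genes of the list with at least 10 reads. The highest of these were Nfe2l2 (51.46 and 38.64 FPKM), Ugt1a6b (27.96 and 36.7 FPKM), Tiparp (8.58 and 10.1 FPKM) and Ugt1a6a (6.25 and 8.96 FPKM).

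The members that serve bile acid and oxysterol synthesis had a median ratio near 0. Of 6 members, 5 reached the minimum, 1 of which was lower and none higher, and the median was -0.06. Cyp27a1, the mitochondrial sterol hydroxylase that makes an oxysterol from cholesterol in many tissues, was at 22.33 FPKM in fl/fl and 20.34 FPKM in AD1KO (-0.13, -0.29 to 0.02). Cyp7b1, which acts on oxysterols and some steroids, was at 1.1 and 1.28 FPKM (0.22, -0.43 to 0.86). The intervals of both held 0. The lower gene, Cyp8b1 of cholic acid synthesis, was at 0.65 and 0.44 FPKM with an interval from -1.66 to 0.47, and Cyp39a1 was at 0.6 and 0.8 FPKM and Cyp46a1 at 0.47 and 0.45 FPKM. Cyp7a1, the rate-limiting enzyme of bile acid synthesis in liver, gave 0 reads in fl/fl and 3 in AD1KO. Of 11 other genes of this pathway, 3 were lower and 2 higher (median 0.03). Ch25h, which makes an oxysterol from cholesterol, was lower, at 2.13 and 0.37 FPKM (47 and 8 reads, -2.49, -3.84 to -1.45), as were Abcg1 and, from 2 and 0 reads, Gpbar1. The higher genes were Baat, from 3 and 16 reads, and Acox2, from 1 and 5 reads. The highest levels were those of Hsd3b7 (40.13 and 38.44 FPKM), Abcg1 (35.43 and 18.54 FPKM), Abca1 (23.95 and 29.38 FPKM) and Amacr (4.89 and 5.64 FPKM).

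Steroid hormone synthesis was represented by weak transcripts. Cyp11a1, which cuts the side chain of cholesterol as the entry into steroid synthesis, was at 1.63 FPKM in fl/fl and 0.73 FPKM in AD1KO (55 and 24 reads), a ratio of -1.15 (-1.94 to -0.47). Cyp21a1 was at 0.5 and 0.31 FPKM and Cyp17a1 at 0.07 and 0.26 FPKM, both with intervals that held 0, and Cyp11b1 gave 2 reads in each library. Star, which brings cholesterol to Cyp11a1, went the other way, from 1.42 to 2.41 FPKM (0.76, 0.39 to 1.14). Of 18 non-P450 genes of steroid metabolism at the minimum, Star among them, 4 were lower and 4 higher, against 19.1% and 14.3% of all genes. The median of the 18 was 0.03. The lower were Hsd17b11, Stard3, Akr1c18 and, from 4 and 2 reads, Hsd17b2. The higher were Star, Hsd11b2, Srd5a1 and, from 18 and 26 reads, Akr1c6. The highest levels were those of Hsd17b4 (120.73 and 166.45 FPKM), Hsd17b12 (131.11 and 133.34 FPKM), Hsd17b10 (71.63 and 87.43 FPKM) and Hsd17b11 (54.51 and 38.53 FPKM).

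In the vitamin D pathway, Cyp2r1, the hydroxylase of the first activation step, was at 1.45 FPKM in fl/fl and 2.41 FPKM in AD1KO, a ratio of 0.73 (0.13 to 1.34). Cyp27b1, which carries out the final activation step, had 5 reads against 0 in AD1KO, and its ratio has an upper counting bound of 0.14 and no lower bound. Cyp24a1, the inactivating enzyme, rested on 0 and 1 reads. The vitamin D receptor gene Vdr was at 0.79 and 0.38 FPKM (59 and 28 reads), a ratio of -1.04 (-1.77 to -0.39). Of the retinoic acid hydroxylases, Cyp26b1 was at 0.31 and 0.39 FPKM with an interval that held 0, and Cyp26a1 gave 1 and 0 reads. Among 15 other genes of retinoid metabolism at the minimum, 3 were lower and 2 higher, against 19.1% and 14.3% of all genes. The median of the 15 was 0.01. The lower genes were Dhrs9 (190 and 70 reads), Crabp2 (10 and 0 reads) and Stra6 (6 and 3 reads), and the higher were Rbp4 and Bco1 (4 and 8 reads). At the highest levels stood Rbp4 (292.67 and 703.63 FPKM), Dhrs3 (226.79 and 203.17 FPKM), Adh1 (131.66 and 174.96 FPKM) and Aldh1a1 (69.29 and 90.52 FPKM). Cyp20a1, whose substrate is not known, was at 12.27 and 11.79 FPKM (-0.06, -0.25 to 0.13).

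**Figure D3:**
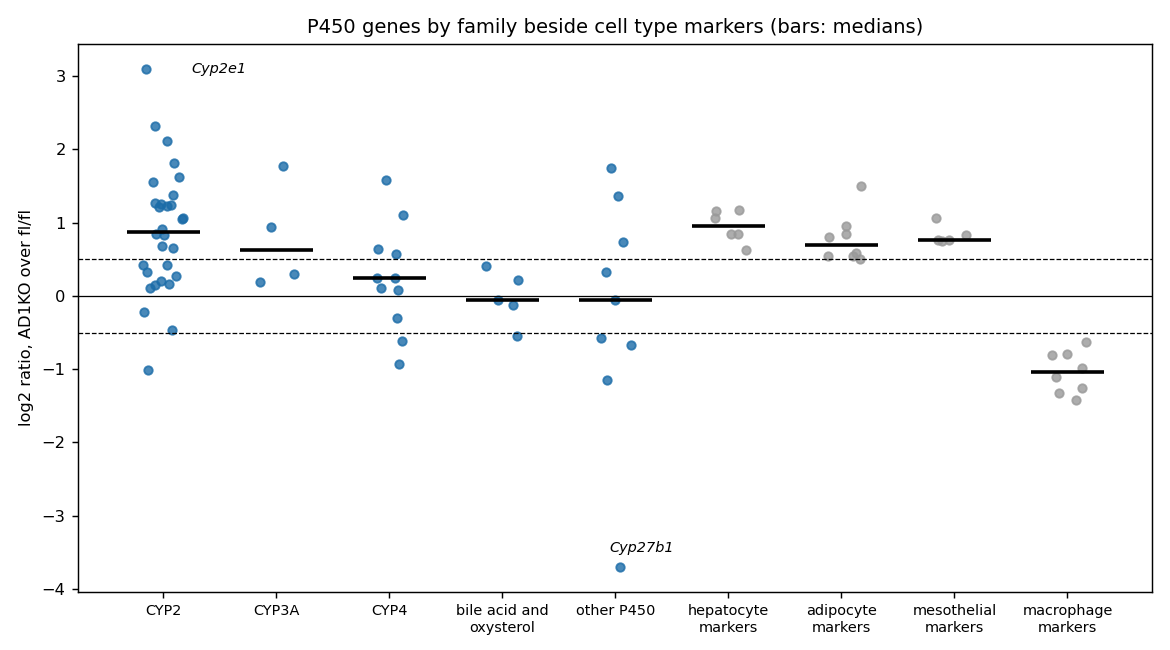
Log2 ratio of AD1KO over fl/fl for the 59 P450 genes at the minimum level, by family (blue), and for 4 lists of cell type markers (grey), with black bars at the medians and dashed lines at the threshold. CYP2 genes, counted without Cyp2r1, have a median of 0.87 and hepatocyte markers one of 0.96, and Cyp2e1 lies above the rest of both groups at 3.10. The place of Cyp27b1 at the bottom depends on the 0.01 FPKM added since it had no read in AD1KO.

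P450 enzymes whose symbols do not follow the naming pattern were not members, and their ratios had both signs. Tbxas1, thromboxane synthase, was at 61.76 FPKM in fl/fl and 21.48 FPKM in AD1KO (-1.52, -1.65 to -1.40). Ptgis, prostacyclin synthase, was at 18.51 and 30.08 FPKM (0.70, 0.54 to 0.86), and Cyp51, the demethylase of cholesterol synthesis, was at 9.29 and 9.74 FPKM (0.07, -0.08 to 0.22). Of 12 genes for electron supply and for the making, binding and breakdown of haem, 1 was lower and none higher, with a median of 0.22, and the lower gene was Hmox1, which breaks haem down. Por, the reductase of microsomal P450 enzymes, was at 84.46 and 98.0 FPKM (0.21, 0.15 to 0.28), and Alas1, the rate-limiting enzyme of haem synthesis, at 88.09 and 109.69 FPKM (0.32, 0.26 to 0.38). Among the electron carriers, Cyb5a was at 503.58 and 615.77 FPKM, Cyb5b at 103.58 and 130.86 FPKM, and Cyb5r3 at 153.72 and 188.51 FPKM. Mitochondrial Fdx1 was at 12.14 and 15.61 FPKM, Fdxr at 6.9 and 7.79 FPKM, and Fdx1l at 43.09 and 39.31 FPKM. The haem-binding proteins Pgrmc1 and Pgrmc2 were at 52.64 and 59.14 FPKM and at 43.38 and 50.57 FPKM. Hmox1, haem oxygenase, was at 175.74 and 115.66 FPKM (-0.60, -0.67 to -0.54), while Hmox2 was at 73.01 and 53.73 FPKM (-0.44).

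Of 21 receptor genes known to regulate P450 genes, 2 were lower and 4 higher, against 19.1% and 14.3% of all genes. The median of the 21 was 0.05. The lower were Vdr, given above, and Nr5a2, from 7 and 4 reads. The higher were Esr1, Ppara, Nr1i3 and Nr0b2, the last from 1 and 3 reads. Esr1, the oestrogen receptor on which the study centred, was at 4.82 FPKM in fl/fl and 8.44 FPKM in AD1KO (0.81, 0.65 to 0.97). Ppara, which drives Cyp4a genes in liver, was at 0.56 and 1.0 FPKM (0.83, 0.40 to 1.28), and Pparg, the adipocyte receptor, was at 84.94 and 109.93 FPKM (0.37, 0.30 to 0.45). The drug sensors Nr1i2 and Nr1i3 rested on 2 and 4 reads and on 5 and 7 reads. The sterol receptors Nr1h2 and Nr1h3 were at 47.57 and 38.94 FPKM and at 67.31 and 76.0 FPKM. Rxra, the common partner of these receptors, was at 25.77 and 31.73 FPKM, and Rxrb at 15.21 and 12.19 FPKM. Ppard, Rara, Rarb, Rarg and Nr3c1, with levels between 1.28 and 15.9 FPKM, had ratios from -0.01 to 0.07. Among 14 genes that handle fatty acid epoxides and eicosanoids, 2 were higher and 1 lower, with a median of 0.10. Ephx2, the soluble hydrolase that opens the epoxides made by CYP2C enzymes, was at 152.2 and 224.09 FPKM (0.56, 0.51 to 0.61), Ephx1 at 116.38 and 111.21 FPKM, Adh5 at 63.53 and 72.06 FPKM, and Hpgd at 53.4 and 61.19 FPKM.

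Markers of several cell types also differed between these 2 libraries. In bulk tissue, fewer cells of a type and less RNA per cell cannot be told apart. The 6 hepatocyte markers were present in both libraries, with none at 0, and 6 of 6 were higher in AD1KO, with ratios from 0.62 to 1.17, a median of 0.96 and summed levels of 101 and 213 FPKM. Alb, albumin, was at 39.98 FPKM in fl/fl and 89.55 FPKM in AD1KO. Among the 34 tested CYP2 and CYP3A genes, with Cyp2r1 left out, 8 had ratios within the range of the hepatocyte markers, 13 above it and 13 below it. These counts take the single ratios, and many of these genes had few reads. By the counting interval, only Cyp2e1 and Cyp2c23 lay wholly above that range. Cyp2d22, Cyp2j6, Cyp2j9, Cyp2u1 and Cyp2f2 alone lay wholly below it. Per 100 FPKM of Alb, Cyp2e1 stood at 81.9 FPKM in fl/fl and 314 FPKM in AD1KO and Cyp2c23 at 12.7 and 16.7 FPKM. On the same scale Cyp2c70 was at 6.28 and 4.51 FPKM, Cyp2d26 at 3.88 and 2.75 FPKM, Cyp3a11 at 3.13 and 2.69 FPKM, Cyp2c29 at 2.2 and 1.75 FPKM, and Cyp2a5 at 1.88 and 1.95 FPKM. The ratio to Alb was thus higher in AD1KO for Cyp2e1, Cyp2c23 and Cyp2a5 and lower for the other 4. For Cyp2a5 and for those 4, the log2 ratio of Alb itself, 1.16, lay within the counting interval of the gene. Their direction against Alb was therefore not resolved by these reads. The part of liver-type RNA in these results was not tested.

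The tissue label was met by its markers, since all 8 adipocyte markers were among the abundant transcripts, with Fabp4 at 11151.42 and 15919.51 FPKM. All 8 were higher in AD1KO, with ratios from 0.51 to 1.5 and a median of 0.69. Per 100 FPKM of Adipoq, adiponectin, Cyp2e1 stood at 1.71 FPKM in fl/fl and 8.47 FPKM in AD1KO and Cyp2c23 at 0.265 and 0.45 FPKM. On that scale Cyp2c70 was at 0.131 and 0.122 FPKM and Cyp2d26 at 0.0811 and 0.0741 FPKM, both lower in AD1KO. Cyp3a11 was at 0.0654 and 0.0726 FPKM, Cyp2c29 at 0.046 and 0.0473 FPKM, and Cyp2a5 at 0.0392 and 0.0527 FPKM. The log2 ratio of Adipoq, 0.80, lay within the counting intervals of Cyp2c70, Cyp2d26, Cyp3a11, Cyp2c29 and Cyp2a5. Their direction on that scale was therefore not resolved. The ratio of Cyp2e1 was above that of every adipocyte and hepatocyte marker listed. All 8 macrophage markers measured were lower, with ratios from -1.42 to -0.63, a median of -1.04 and summed levels of 4430 and 2080 FPKM. The ratios of 4 members, Cyp4f18, Cyp2f2, Cyp11a1 and Cyp21a1, lay within that range, and Cyp1b1 lay above it. The part of macrophage transcripts in the levels of these genes was not tested.

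Other lists moved as well. The 5 mesothelial markers were all higher (median 0.76, summed levels 74.3 and 140 FPKM), and 3 of 4 smooth muscle markers were higher (median 1.03). Of 5 reproductive tract markers 3 were lower, with a median of -3.19. Ovgp1 was at 3.51 and 0.17 FPKM and Wfdc2 at 3.64 and 0.39 FPKM, and Pax8 had 11 reads against 0 in AD1KO. Of the ovarian steroid cell markers, Star was higher and Inha was at 0.92 and 0.97 FPKM, and Hsd3b1 and Lhcgr each had 0 reads against 1 in AD1KO. Among lymphocyte markers 2 of 4 were lower (median -0.45), and none of 5 endothelial markers passed 0.5 (median 0.32). Of 9 stromal progenitor markers 2 were lower and 1 higher (median 0.11). Of 4 brown adipocyte markers 2 were lower and 2 higher, so their median of 0.02 hides opposite ratios. The lower were Ucp1 (-2.60, 226 and 37 reads) and Cidea (-0.80, 109 and 62 reads). The higher were Dio2 (0.84, 26 and 46 reads) and Elovl3 (1.43, 14 and 38 reads). The part of dissection and cell make-up in the P450 values was not tested.

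**Figure D4:**
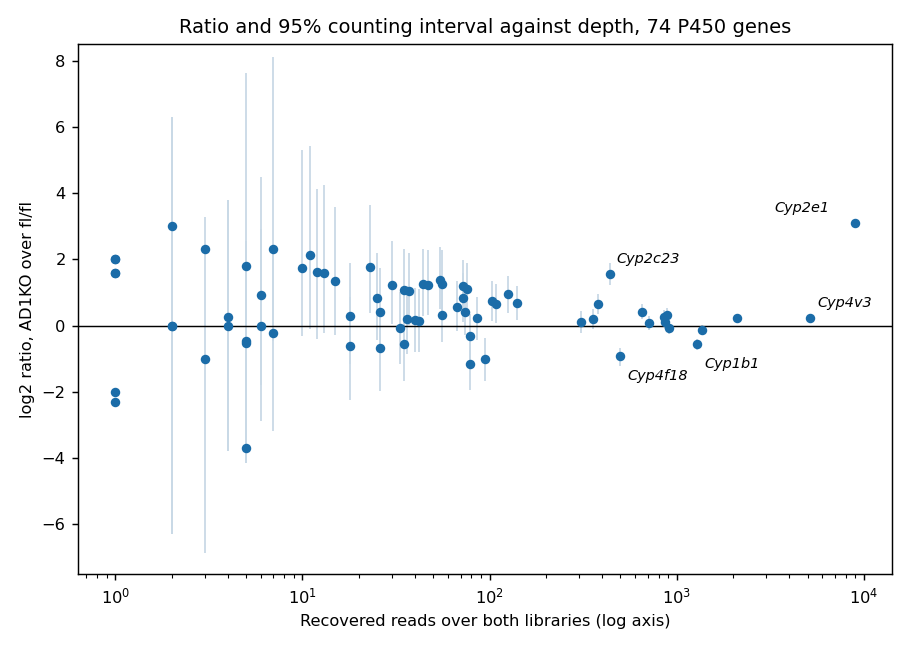
Log2 ratio of each of the 74 P450 genes against its reads summed over both libraries (log axis), with vertical lines for the 95% counting interval where both bounds exist. Below 10 reads the intervals span several log2 units, and among the genes with the most reads Cyp2e1, at 9019 reads, stands apart at 3.10 while Cyp4v3, at 5172 reads, lies at 0.24.

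The precision of the P450 ratios followed the level of the genes, here taken as the mean of both libraries. Among the 6 members at 10 FPKM or more, with 866 to 9019 reads, 1 was higher and none lower, against 8.17% and 13.2% of the 5793 genes at that level, and the median ratio was 0.17 against -0.04. In the 19 members from 1 to 10 FPKM, with 72 to 1291 reads, 8 were higher and 4 lower, against 10.6% and 17.2% of 6538 genes, and the median was 0.33 against -0.06. For the 31 members from 0.1 to 1 FPKM, with 6 to 79 reads, 18 were higher and 3 lower, against 28.9% and 31.2% of 3102 genes, and the median was 0.91 against 0.00. At that level the share of all genes past the threshold was larger in both directions than at the higher levels. In 22 of the 31 members the interval held 0, so that these reads could not resolve a difference. Under 0.1 FPKM, with 1 to 6 reads and no minimum applied, 7 of 18 members were higher and 5 lower. The shares of the 1902 genes there were 38.8% and 36.5%, both medians were 0.00, and the interval held 0 in all 18 members.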

How the data were processed

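The values analysed were FPKM deposited by the authors in a table of 17335 genes, with a gene length and 1 column for each of 2 polyA-selected libraries sequenced at BGI. The aligner and counter are not given in the sources used here. The submitters' processing notes name mm9 and mm10 without a role, and the methods name mm9. Zeros were written as 0.01 FPKM in the table and were read as 0. The deposited columns with the authors' own fold change, P value and FDR were not used. RRBS libraries of the series were not analysed here.

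Reads were recovered from the whole-read steps of low FPKM values and the gene lengths alone: 82.5% of 983 low fl/fl values and 81.9% of 1011 low AD1KO values fell within 0.15 of a whole read, where 30% would by chance. Reads totalled 17773433 and 17581794. Intervals are exact (Clopper-Pearson, 95%) and cover counting error only. The log2 ratio used a pseudocount of 0.01 FPKM, genes needed 0.1 FPKM in at least 1 library, and genes at 0.5 or beyond are called higher or lower. The step was tested on simulated data. Members at 1 FPKM or more were named one by one, others by group (the 3 highest, or those named for contrast after their values were seen). In companion lists, genes at 1 FPKM or the 4 highest were named, and some called genes were added after their values were seen. A gene of the steroid metabolism list is not reported here and was left out of its counts. The members and lists were chosen with earlier results of these data known. Gene positions and transcripts were from GENCODE vM1 on mm9, matched for 73 of 74 members, and promoter windows from RefSeq (GRCm38.p6). Alternatives were 3 scalings, 2 pseudocounts, 2 minimums, another threshold and the whole interval past 0.5. Calculations used pandas 2.3.3, SciPy 1.17.1 and NumPy 2.4.6 under Python 3.11.15, and plots Matplotlib 3.10.9.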

Additional observations from a re-analysis of the deposited data

How the results depend on the processing

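With 1 library per genotype there is no spread between animals, and no left-out replicate could be run. No paired analysis was possible because each genotype has a single pooled library. Under the 3 scalings the median of all genes moved from -0.04 to between -0.01 and 0.03, and 28 members stayed above the threshold, with 6 to 8 below it. With a pseudocount of 1 FPKM, 9 members were higher and 4 lower (15.3% and 6.78%), with 965 and 1661 genes (6.09% and 10.5%). With a minimum of 1 FPKM, 13 members were higher and 4 lower (44.8% and 13.8%), and 1281 genes were higher (10.1%, with 16.3% lower). At a threshold of 1, 19 members were higher and 3 lower (32.2% and 5.08%), with 910 genes higher and 1417 lower (5.75% and 8.95%). With the whole interval past 0.5, 2 members were higher and 1 lower (3.39% and 1.69%), with 661 and 1314 genes (4.17% and 8.3%). Chosen after seeing the data, leaving out members that share over 10% of their words left 15 higher and 8 lower of 39. These were 38.5% and 20.5%, against 14.3% and 19.1% of genes, so the share of lower members was no longer below that of genes. Of 29 members named one by one, 28 kept their sign under 5 settings, Cyp20a1 being the exception (-0.06 to 0.02). With ratios rounded to 2 decimals, 13 of 17 called members kept their call. Cyp1b1 was counted among them at -0.50 under the scaling to the upper quartile. Before rounding it fell just inside the threshold there, so its call was not kept under that scaling. Under a pseudocount of 1 FPKM, Cyp2d26 (0.44), Cyp2r1 (0.48), Cyp2c29 (0.45) and Cyp4a10 (0.28) fell inside the threshold.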
